A study of Mus musculus with 9 samples.

Results

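Ribosome footprints of 10 mouse genes were followed that detect foreign or misplaced nucleic acids in the cytosol, pass the alarm on, or act on the same nucleic acids. The genes, chosen by symbol with earlier results of these data known, were Ddx58, Ifih1, Dhx58, Zbp1, Eif2ak2, Mavs, Tmem173, Adar, Parp14 and Samhd1. Values were analysed for 9 of the 10 among 16921 genes in all, and Zbp1 was not analysed here. Each of these 9 had a mean of at least 10 normalised footprints over all libraries, as had 10103 genes in all, and entered the tests. Of these genes, Ifih1 and Ddx58, which encode RNA helicases that recognise viral RNA, had the largest differences of GFP-TTP from either other condition. Ddx58 and Ifih1 were 2.40-fold and 2.54-fold lower in macrophages expressing GFP-TTP than in macrophages expressing GFP alone, and Ifih1 was 5.38-fold higher with the mutant GFP-TTP-AA than with GFP-TTP.

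The cells were bone marrow-derived macrophages (BMDMs) from TTP-deficient mice, which had been immortalized with the oncogenes hcmyc and hRasG12V. TTP (gene Zfp36) is an RNA-binding protein that attaches to AU-rich elements in the 3′UTR of many inflammatory mRNAs and promotes their decay. Each line carried an all-in-one retroviral vector from which doxycycline induced GFP, GFP-TTP or GFP-TTP-AA. TTP-AA has the substitutions S52A and S178A, which remove the serines that the kinase MK2 phosphorylates to restrain TTP. The 3 conditions are called GFP-only (the control), GFP-TTP (the wild type) and GFP-TTP-AA (the mutant). Cells of every condition are labelled as TTP-deficient and received doxycycline (1 μg/ml) for 6 h and LPS (1 μg/ml) for 1 h, so no resting sample was compared. With 3 libraries per condition there were 9 in all, and nothing in the labels says whether the 3 came from separate cultures. Each condition was its own transduced population, sorted for GFP, so that a difference between constructs and a difference between cell lines cannot be told apart.

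The measured quantity was the number of ribosome-protected fragments per gene (RiboSeq), which reflects both the amount of an mRNA and how densely ribosomes occupy it, and these cannot be told apart in RiboSeq alone. The deposited values are those that the authors' DESeq2 model fitted for every gene and library. They are therefore the product of a condition term, a replicate-number term and a library factor, and the ratio between replicates of a gene is the same in every condition by construction. For this reason values by library describe the fit, and errors are the standard errors (SE) of the authors' model. A level below means the geometric mean of the fitted footprints of the 3 libraries of a condition after division by the library factors. Fold changes come from a model that pulls the changes of weakly covered genes towards 0.

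Zfp36 itself, the gene placed in the vectors, had levels of 459 in the control, 927 with GFP-TTP and 1537 with the mutant. It was higher in both TTP lines than in GFP-only (adjusted p = 0.00492 and 2.34e-09, Wald test on the DESeq2 errors with Benjamini-Hochberg adjustment) and higher in GFP-TTP-AA than in GFP-TTP (adjusted p = 0.0385). The GFP-only libraries thus had 438 to 500.0 normalised footprints on Zfp36, although the cells are labelled as TTP-deficient. Gene totals do not show where in the gene these footprints lie, and whether they come from the disrupted allele was not tested. All 7 macrophage markers on the list, among them Csf1r, Cd68 and Lyz2, had footprints, and their levels summed to 84210 in the control, 63650 with GFP-TTP and 94670 with the mutant. Lyz2 made up most of these sums (64064, 46007 and 71450). Csf1r, Cd68, Emr1 (3665, 2291 and 5346) and Fcgr1 (129, 67.1 and 111) were likewise lowest with GFP-TTP, whereas Itgam was lowest in the control (2969, 3188 and 3192). Mertk did not reach a level of 10 in any condition (5.44, 4.66 and 4.71). Of 26 markers of other cell types 12 had values, and 2 of them, S100a8 and Itgax, reached a level of 10 in any condition. Neutrophil markers, with values for 2 of 5, summed to 27.2, 25.7 and 56.0 in the same order, of which Mpo made up less than 1. This sum was highest in GFP-TTP-AA, where Ifih1 and Parp14 were also highest, and its part in these results was not tested.

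RIG-I (Ddx58) and MDA5 (Ifih1) are helicases that bind viral RNA in the cytosol, RIG-I preferring short RNA with a 5′ triphosphate and MDA5 long double-stranded RNA. LGP2 (Dhx58) lacks the signalling domains of its relatives and modulates them. RIG-I and MDA5 signal through the mitochondrial adaptor MAVS, and the DNA sensor cGAS signals through the adaptor STING (Tmem173) at the endoplasmic reticulum, both towards the kinase TBK1, the factor IRF3 and interferon-β. ZBP1 binds Z-form nucleic acids and activates the kinase RIPK3, PKR (Eif2ak2) halts translation when it binds double-stranded RNA, ADAR1 (Adar) edits such RNA so that MDA5 and PKR ignore it, and SAMHD1 depletes the deoxynucleotides that reverse transcription needs. PARP14 is an ADP-ribosyltransferase. In macrophages LPS induces interferon-β, and many of these genes are themselves induced by interferon.

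Sequences at which interferon response factors could bind, and AU-rich sites of the kind TTP binds, are shown because several of these genes are known to be induced by interferon and TTP is known to act through AU-rich sites. RefSeq promoter windows (GRCm38.p6, 250 bases before to 50 bases after a start site) were at hand for 6 of the 10 genes, in 8 windows. The core AANNGAAA, searched on both strands, lay in 4 of these windows, and in 23.9% of all 32851 windows. The NF-κB motif GGANNTTCC, searched likewise, lay in 1 of the 8 windows, an Adar window, and in 4.26% of all windows. The windows of Mavs and Samhd1 and the other 2 Adar windows held neither. The 30 bases around the AANNGAAA core nearest to the start site are printed below on the gene's strand, with the core in capitals.
Ddx58, chr4:40239805-40239834 (- strand): ccctgaggcagTTTCGATTtcctatggcca
Ifih1, chr2:62646206-62646235 (- strand): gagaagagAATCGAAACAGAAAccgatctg
Eif2ak2, chr17:78882534-78882563 (- strand): gtccgccgggaAAACGAAAcagaagagaac
Adar, chr3:89730736-89730765 (+ strand): ccttttcaaggAAACGAAAgtgaactctgg
In Ddx58 the core is read on the opposite strand and begins at position 3 after the start site, and another lies 59 bases before it. Ifih1 has 2 overlapping cores from position 29, and Eif2ak2 and Adar have 1 each, from positions 21 and 30.

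In the annotated 3′UTR of the longest coding transcript (GENCODE vM21, GRCm38), the AU-rich heptamer TATTTAT occurred once in Ifih1 and in 2 places in Eif2ak2, and in none of the other 7 genes. Among 9822 tested genes with an annotated 3′UTR, 27.8% held this heptamer. The shorter pentamer ATTTA, part of the heptamer, occurred in 7 of the 9 genes, with 2 copies each in Ddx58 and Ifih1, 3 each in Eif2ak2 and Parp14, and none in Dhx58 or Mavs, beside 66.6% of all these genes. The 27 bases around each heptamer are printed on the gene's strand, with the heptamer in capitals.
Ifih1, chr2:62597250-62597276 (- strand): tttccagatcTATTTATtttatgtcta
Eif2ak2, chr17:78854981-78855007 (- strand): acagacattgTATTTATtaggctatga
Eif2ak2, chr17:78854056-78854082 (- strand): atagtagcctTATTTATaatagccagg
The Ifih1 heptamer begins at base 643 of a 3′UTR of 2111 bases. The 3′UTR of Ddx58 has 961 bases. Of the genes that passed the test in any comparison, Ifih1 holds the heptamer, Ddx58 and Parp14 hold the pentamer only, and Dhx58 holds neither. Ifih1 passed in all 3 comparisons, Ddx58 in 2 and Eif2ak2, which holds the heptamer in 2 places, in none. Whether these sites have a part in the differences was not tested.

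The levels of the 9 genes spanned a wide range when divided by coding length. In GFP-only macrophages SAMHD1 had by far the densest coverage, with 1221 footprints per kb of coding sequence, more than 90.4% of the tested coding genes. The adaptors followed with 299 per kb for Tmem173 and 255 per kb for Mavs, and then PKR with 209 per kb. Adar stood at 86.2 per kb, below the median of the tested coding genes (145 per kb). The helicases and Parp14 lay lowest, with 37.4 per kb for Ddx58, 31.3 per kb for Parp14, 24.4 per kb for Dhx58 and 16.0 per kb for Ifih1. Ifih1 density was higher than that of 7.51% of the tested coding genes. In GFP-only, neighbours in this order overlapped in their ranges over libraries for Tmem173 and Mavs, Mavs and Eif2ak2, Ddx58 and Parp14, Parp14 and Dhx58, and Dhx58 and Ifih1, a spread that is the fitted replicate term alone. Within replicate numbers Ddx58 was above Parp14, Parp14 above Dhx58 and Dhx58 above Ifih1 in 3 of 3 replicates, while Tmem173 was above Mavs, and Mavs above Eif2ak2, in 2 of 3. In GFP-TTP-AA macrophages Ifih1 reached 33.9 per kb and Dhx58 23.7 per kb, whereas in GFP-TTP Ifih1 was at 6.31 per kb. The ranges of Ifih1 and Dhx58 in GFP-TTP-AA overlapped, with Ifih1 above Dhx58 in 3 of 3 replicates. Like the ranges, these orders within replicate numbers come from the fitted terms and are not separate observations.

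**Figure D1:**
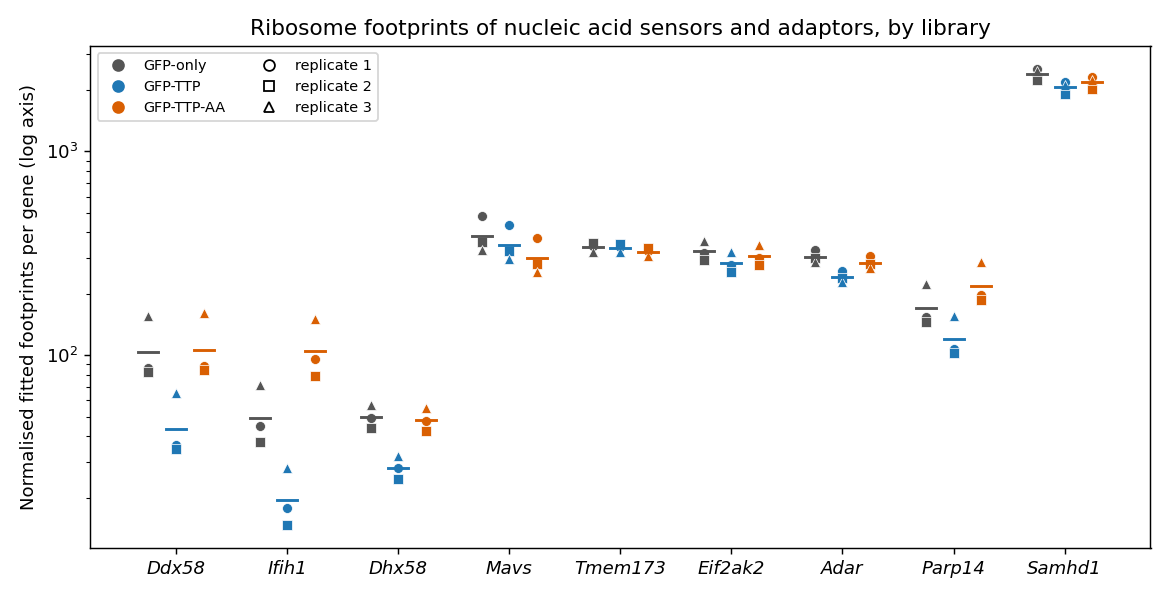
Normalised fitted ribosome footprints (log axis) of the 9 genes in each library, with colours for the conditions, marker shapes for the replicate numbers and short lines for the geometric mean of 3 libraries. For Ddx58, Ifih1 and Dhx58 the fitted GFP-TTP values lie below all others, a separation that follows from the fitted terms. Tmem173 lies between 305 and 354 in every library.

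MDA5 was the sensor whose footprints differed most. Fitted normalised footprints on Ifih1 (chr2:62595798-62646255, minus strand, 16 exons) were 45.0, 37.3 and 71.0 in the GFP-only replicates 1, 2 and 3, and 17.7, 14.7 and 28.0 in those of GFP-TTP. In GFP-TTP-AA they were 95.5, 79.1 and 150.5. The fitted values of the 3 conditions did not overlap, with GFP-TTP lowest and GFP-TTP-AA highest. This separation follows from the fitted terms and is not agreement between separately measured libraries. Against GFP-only, Ifih1 fell with GFP-TTP (log2 fold change -1.34 ± 0.25 SE, adjusted p = 1.56e-05 with the DESeq2 errors) and rose with GFP-TTP-AA (1.08 ± 0.24 SE, adjusted p = 0.00112). Between the TTP forms the difference was 2.43 ± 0.25 SE on the log2 scale, with an adjusted p of 4.42e-20. By size of change Ifih1 was the 17th lowest of 9938 genes in the first comparison and the 9th highest of 10103 in the last. Its coverage was low, since the smallest fitted value before normalisation was 8.27 footprints, in GFP-TTP replicate 2.

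RIG-I footprints were lower with GFP-TTP than in either other condition. On Ddx58 (chr4:40203773-40239828, minus strand, 18 exons) they were 86.5, 83.0 and 156 in the 3 GFP-only replicates, 36.0, 34.6 and 65.2 with GFP-TTP, and 88.6, 84.9 and 160 with GFP-TTP-AA. The fitted GFP-TTP values lay below every fitted value of the other conditions, whose ranges overlapped almost entirely. The log2 fold change was -1.26 ± 0.22 SE with GFP-TTP against GFP-only (adjusted p = 4.73e-06 with the DESeq2 errors) and 1.30 ± 0.22 SE with GFP-TTP-AA against GFP-TTP (adjusted p = 7.00e-07). For GFP-TTP-AA against GFP-only it was 0.03 with a 95% interval of -0.39 to 0.46, and the adjusted p of 0.985 missed the threshold of 0.05.

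LGP2 footprints were also lowest with GFP-TTP, with smaller differences. On Dhx58 (chr11:100694884-100704271, minus strand, 13 exons) they were 49.1, 43.8 and 56.6 in GFP-only, 27.8, 24.8 and 32.1 in GFP-TTP, and 47.8, 42.6 and 55.1 in GFP-TTP-AA. Again the fitted GFP-TTP values lay below all others and those of the remaining conditions overlapped. Dhx58 rose with GFP-TTP-AA against GFP-TTP (log2 fold change 0.78 ± 0.25 SE, adjusted p = 0.0236 with the DESeq2 errors). The difference of GFP-TTP from GFP-only, -0.82 ± 0.25 SE, just missed the threshold (adjusted p = 0.0502), and passed it when the fold changes were centred on their median (0.0488), when the chromosome median was subtracted (0.0426) or when all comparisons were adjusted together (0.0274). With no filter (0.0502) and with median-of-ratios library factors (0.0507) this difference missed it by the same test. At a fitted mean of at least 50 Dhx58 was not tested. GFP-TTP-AA and GFP-only differed by -0.04, with a 95% interval of -0.53 to 0.45. The SE of Dhx58 and Ifih1 were close to the largest of any gene in these tables, 0.25. Dhx58os, an antisense gene, overlaps Dhx58, and the sources do not state whether counting used strand, so reads of the pair cannot be told apart.

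Parp14, an ADP-ribosyltransferase without a helicase domain, was the other gene of the set with a change. Fitted values on Parp14 (chr16:35832874-35871544, minus strand, 17 exons) were 153, 146 and 222 in GFP-only, 108, 102 and 156 in GFP-TTP, and 197, 187 and 285 in GFP-TTP-AA. The fitted values of GFP-TTP and GFP-TTP-AA did not overlap, while those of GFP-only lay between them and overlapped with both. Parp14 rose by 0.87 ± 0.21 SE on the log2 scale with GFP-TTP-AA against GFP-TTP (adjusted p = 0.00100 with the DESeq2 errors). Against GFP-only the differences were -0.51 with GFP-TTP (95% interval -0.92 to -0.10, adjusted p = 0.252) and 0.36 with GFP-TTP-AA (-0.04 to 0.77, adjusted p = 0.441). Gm49730, a gene of unknown coding status, overlaps Parp14 on the same strand, so its reads cannot be told apart from those of Parp14 even by strand.

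Neither adaptor passed the test in any comparison. Fitted values on Mavs, the platform on which RIG-I and MDA5 signal, lay between 328 and 481 in GFP-only, 297 and 435 in GFP-TTP, and 257 and 376 in GFP-TTP-AA, and all conditions overlapped. The log2 differences for Mavs were -0.14 with GFP-TTP against GFP-only (95% interval -0.45 to 0.16), -0.35 with GFP-TTP-AA against GFP-only (-0.66 to -0.05, adjusted p = 0.235) and -0.21 between the TTP forms (-0.51 to 0.10). Mavs thus had its lowest values in the condition in which Ifih1, a receptor that signals through it, was highest, without passing the test. STING (Tmem173) had fitted values between 305 and 354 in all 9 libraries, with differences of -0.01, -0.08 and -0.07 in the same order. The 95% intervals of these reached from -0.40 at the lowest to 0.31 at the highest. Changes of Tmem173 as large as those of Ddx58 in the comparisons that Ddx58 passed lay outside these intervals.

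None of the effectors Eif2ak2, Adar and Samhd1 passed the test in any comparison. PKR (Eif2ak2), which blocks translation initiation, had levels of 324 in the control, 284 with GFP-TTP and 307 with the mutant, and its 95% interval for the first pair was -0.53 to 0.15 around a difference of -0.19. Samhd1 had levels of 2410, 2071 and 2185 in the same order, with an interval of -0.50 to 0.06 for the same pair. Adar, the editing enzyme, had levels of 305, 242 and 284. Its log2 difference of -0.33 ± 0.17 SE between GFP-TTP and GFP-only (adjusted p = 0.441 with the DESeq2 errors, 0.0496 unadjusted) became -0.15 when the median of its chromosome was subtracted, since the 467 tested genes of chromosome 3 had a median of -0.18 in that comparison. Of the genes that overlap these effectors on the opposite strand, Chrnb2 (Adar) had a level below 1.2 and Gm26637 and n-R5s29 (Eif2ak2) below 0.5 in every condition.

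**Figure D2:**
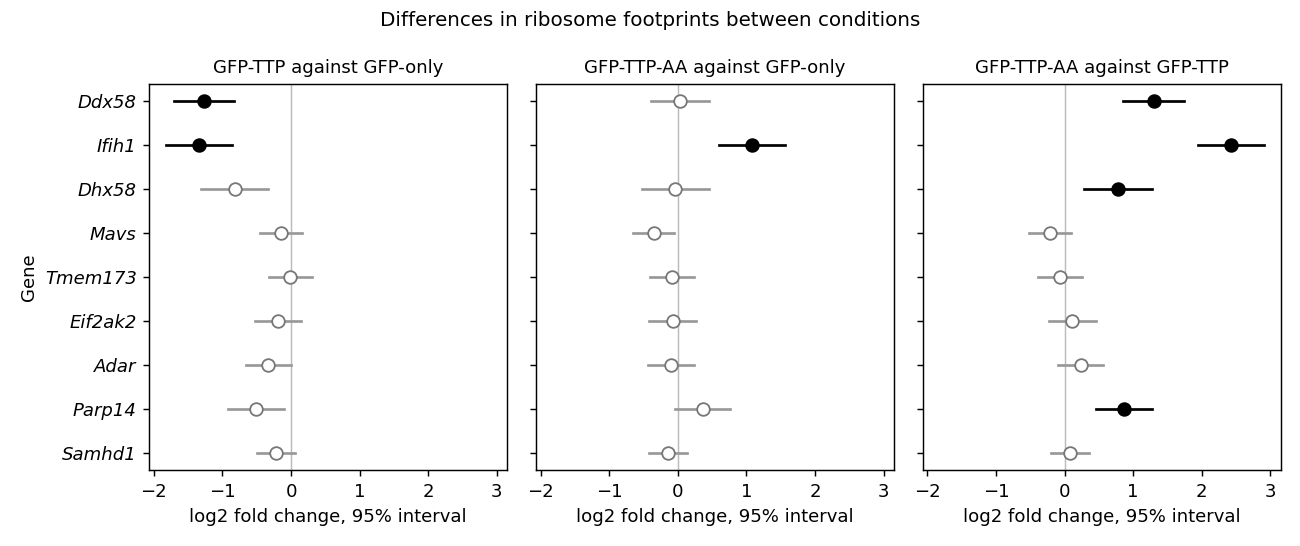
Log2 fold changes (points) with 95% intervals (lines) of the 9 genes in the 3 comparisons, where filled points passed an adjusted p of 0.05. The helicases Ddx58, Ifih1 and Dhx58 lie at -1.34 to -0.82 with GFP-TTP against GFP-only and at 0.78 to 2.43 between the TTP forms, and Ifih1 alone is filled with GFP-TTP-AA against GFP-only.

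Counted over the set, 2 of 9 genes passed the test in GFP-TTP against GFP-only, both lower, where 208 of 9938 genes (2.09%) passed in either direction and 1.29% were lower. All 9 had log2 fold changes below 0 in this comparison, with a median of -0.33 beside 0.00 for all tested genes, and 5 of the 9 had an unadjusted p under 0.05, as had 11.3% of all tested genes. In GFP-TTP-AA against GFP-only 1 of 9 passed, Ifih1, which was higher, where 3.03% of 10103 genes passed and 1.76% were higher. The median there was -0.07, beside 0.01 for all genes, and 2 of the 9 had an unadjusted p under 0.05, beside 14.2%. Between the TTP forms 4 of 9 passed, all higher with the mutant, where 10.2% of 10103 genes passed, with 5.66% higher and 4.58% lower. The median was 0.23 beside 0.01, and 4 of the 9 had an unadjusted p under 0.05, beside 22.1%. These comparisons share libraries in pairs, so a gene's values in them are not independent. The set was chosen with earlier results of these data known, so its counts beside those of all genes are a description only.

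Several of these genes also shared a difference between replicate numbers, which the model took to be the same in each condition. Replicate 3 exceeded replicate 1 by 0.86 on the log2 scale for Ddx58, by 0.66 for Ifih1 and by 0.54 for Parp14. For all tested genes the 5th and 95th percentiles of this difference were -0.43 and 0.48, so these 3 genes lay above the upper percentile. Mavs lay below the lower percentile, at -0.55, and the remaining genes lay within, between -0.18 for Adar and 0.21 for Dhx58. In the model, differences between conditions are fitted beside these terms. Whether a difference between conditions varied with the replicate number was not tested, since the fitted values hold no deviations from the model.

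Genes near the sensors on the chromosome were examined, since each condition was a separate cell line. Within 1 Mb of Ddx58 there were 13 tested genes with a median of 0.06 (log2) when GFP-TTP was set against the control. None of them passed the test, where 2.09% of all tested genes passed. An unadjusted p under 0.05 was found for 0 of the 13, beside 11.3% of all tested genes. In GFP-TTP-AA against GFP-TTP the median of these 13 genes was -0.14 and 1 of them, Chmp5, passed and was lower. Dhx58 had 34 such neighbours with a median of -0.07 in the latter comparison, of which Nbr1 passed and was lower. Ifih1 had 2 tested neighbours, of which Tank was higher (0.52). The surroundings of Parp14 differed from these, with a median of 0.36 over 17 genes in GFP-TTP-AA against GFP-TTP. Of all tested genes 10.2% passed in that comparison, 5.66% as higher. Here 7 of the 17 passed, all of them higher. Among them were Dtx3l and Parp9, partner proteins in ADP-ribosylation whose start sites lie 67.6 and 66.9 kb from that of Parp14. The median of all 324 tested genes of chromosome 16 was 0.16 in this comparison, and Parp14 was at 0.71 after its subtraction, still past the threshold (adjusted p = 0.0120 with the DESeq2 errors). In GFP-TTP against GFP-only 2 of the 17 neighbours of Parp14 passed, Ptplb and Dtx3l, both lower, and none of those of Ifih1 or Dhx58.

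**Figure D3:**
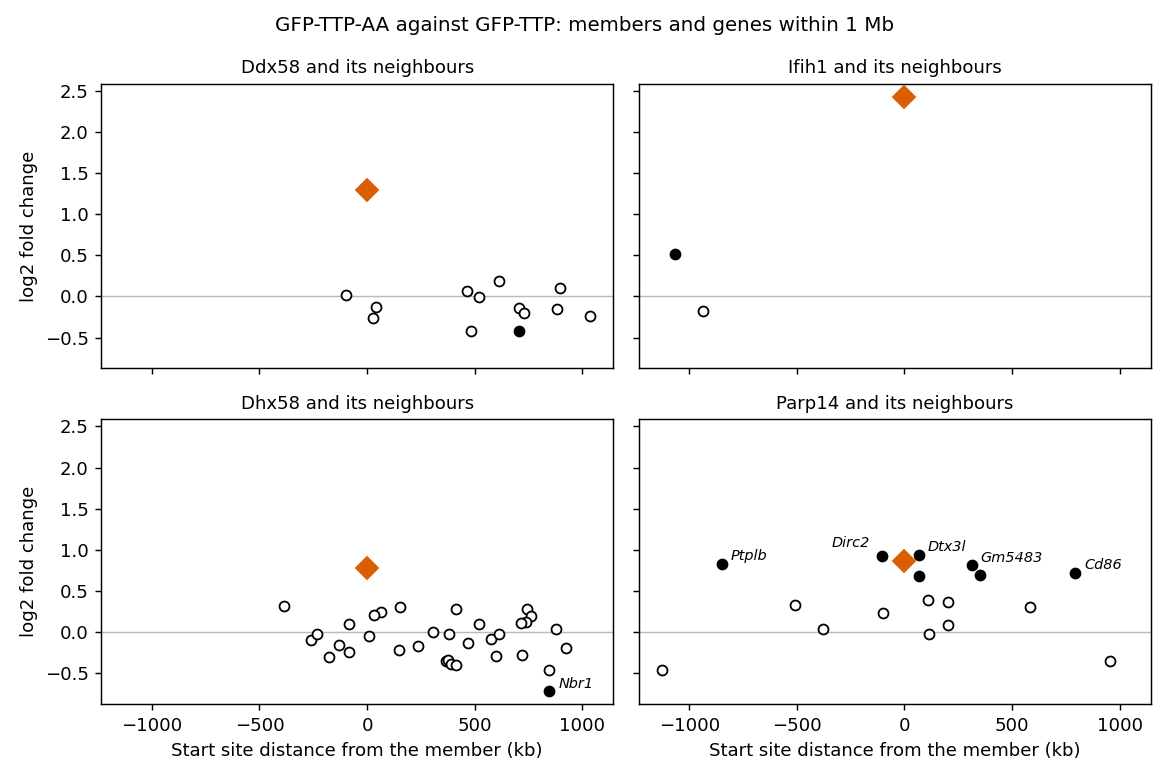
Log2 fold change of GFP-TTP-AA against GFP-TTP for 4 genes with a change (diamonds) and for the tested genes within 1 Mb of each (circles), plotted by the distance between start sites in kb, with filled symbols for an adjusted p under 0.05 and names for filled neighbours beyond 0.7 in either direction. Ddx58, Ifih1 and Dhx58 lie above all their neighbours, whereas Parp14 (0.87) lies among neighbours such as Dtx3l (0.94) and Dirc2 (0.92).

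Other genes of the pathway were described by 7 lists with 140 genes, of which 127 were tested in GFP-TTP-AA against GFP-TTP. In that comparison 12 of them passed as higher and 9 as lower, together 16.5%, beside 10.2% of all genes. In GFP-TTP against GFP-only 2 of 125 passed, both lower (1.6%), whereas between the mutant and the control 1 was higher and 3 were lower of 127 (3.15%). Both shares are near those of all genes. The lists too were chosen with earlier results of these data known, so shares of list genes here and below are a description only.

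Among signalling components below MAVS and STING, the genes that passed the test between the TTP forms were all higher with the mutant. Of 21 tested genes 6 were higher and none lower in GFP-TTP-AA than in GFP-TTP, where 5.66% of all genes were higher. The median was 0.33 beside 0.01 for all genes. RIPK3, the kinase of necroptosis that ZBP1 can activate, had levels of 123.5 in the control, 39.1 with GFP-TTP and 203 with the mutant. Ripk3 fell with GFP-TTP against GFP-only (log2 fold change -1.66 ± 0.23 SE, adjusted p = 5.77e-10 with the DESeq2 errors) and rose by 2.37 ± 0.23 SE between the TTP forms (adjusted p = 8.34e-22). Ifnar1, a chain of the interferon-α/β receptor, rose with GFP-TTP-AA against both GFP-TTP (0.73 ± 0.16 SE, adjusted p = 2.56e-04) and GFP-only (0.56 ± 0.16 SE, adjusted p = 0.0208). Irf5, a transcription factor of this pathway, rose by 0.61 ± 0.17 SE between the TTP forms (adjusted p = 0.00797), and Ifnar2, Traf2 and Tank were the remaining 3 genes.

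Among other cytosolic sensors and their cofactors, the genes that passed were all lower with the mutant. Of 27 tested genes 4 were lower in GFP-TTP-AA than in GFP-TTP and none higher, where 4.58% of all genes were lower, with a median of -0.04. Ddx3x, an RNA helicase with a part in translation initiation, fell with GFP-TTP-AA against GFP-TTP (-0.45 ± 0.12 SE, adjusted p = 0.00327 with the DESeq2 errors) and against GFP-only (-0.44 ± 0.12 SE, adjusted p = 0.0123). The other 3 were the RNA helicase Dhx9, the RNA polymerase III subunit Polr3a and the DNA end-binding protein Xrcc6, which have broad roles outside immunity.

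Among 9 endosomal receptors and their helpers, Tlr9 and Pld4 were higher in GFP-TTP-AA than in GFP-TTP and none was lower. The median was 0.31, and 5.66% of all genes were higher. Pld4, an exonuclease of endolysosomes that trims ligands of TLR9, rose by 0.62 ± 0.13 SE (adjusted p = 1.52e-04 with the DESeq2 errors). In the PARP family with its partners, 2 of 15 genes were higher and 2 lower between the TTP forms, beside 5.66% and 4.58% of all genes. Dtx3l, a ubiquitin ligase that works with PARP9, fell with GFP-TTP against GFP-only (-0.83 ± 0.23 SE, adjusted p = 0.0203) and rose with GFP-TTP-AA against GFP-TTP (0.94 ± 0.23 SE, adjusted p = 0.00145), as Parp9 did in the latter comparison. Parp1, the abundant nuclear enzyme of DNA repair, went down by 0.45 on the log2 scale there (log2 fold change -0.45 ± 0.13 SE, adjusted p = 0.00643), and Parp3 was also lower.

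Of 25 tested regulators of RIG-I, MAVS and STING, Tmed2 and Ube2n were higher in GFP-TTP-AA than in GFP-TTP. Dak, whose product restrains MDA5, was lower, and the median was 0.00. Their share of the 25 was near the 10.2% of all genes that passed in this comparison. Nucleases and nucleotide metabolism genes had a median of -0.24 in that comparison, with 2 of 13 lower, Xrn1 and Ttc37, and none higher. Of all genes 4.58% were lower. Ttc37, a subunit of the superkiller complex that feeds RNA to the exosome, was also lower in GFP-TTP-AA than in GFP-only (-0.66 ± 0.18 SE, adjusted p = 0.0116 with the DESeq2 errors), as was the nucleoside kinase Dck. None of the 17 tested partners of ADAR and PKR passed the test in any comparison (1 in each had an unadjusted p under 0.05, a smaller share than the 11.3%, 14.2% and 22.1% of all tested genes). In GFP-TTP against GFP-only this was Ppp1r15a, which just missed the threshold (-0.68 ± 0.21 SE, adjusted p = 0.0502 with the DESeq2 errors).

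**Figure D4:**
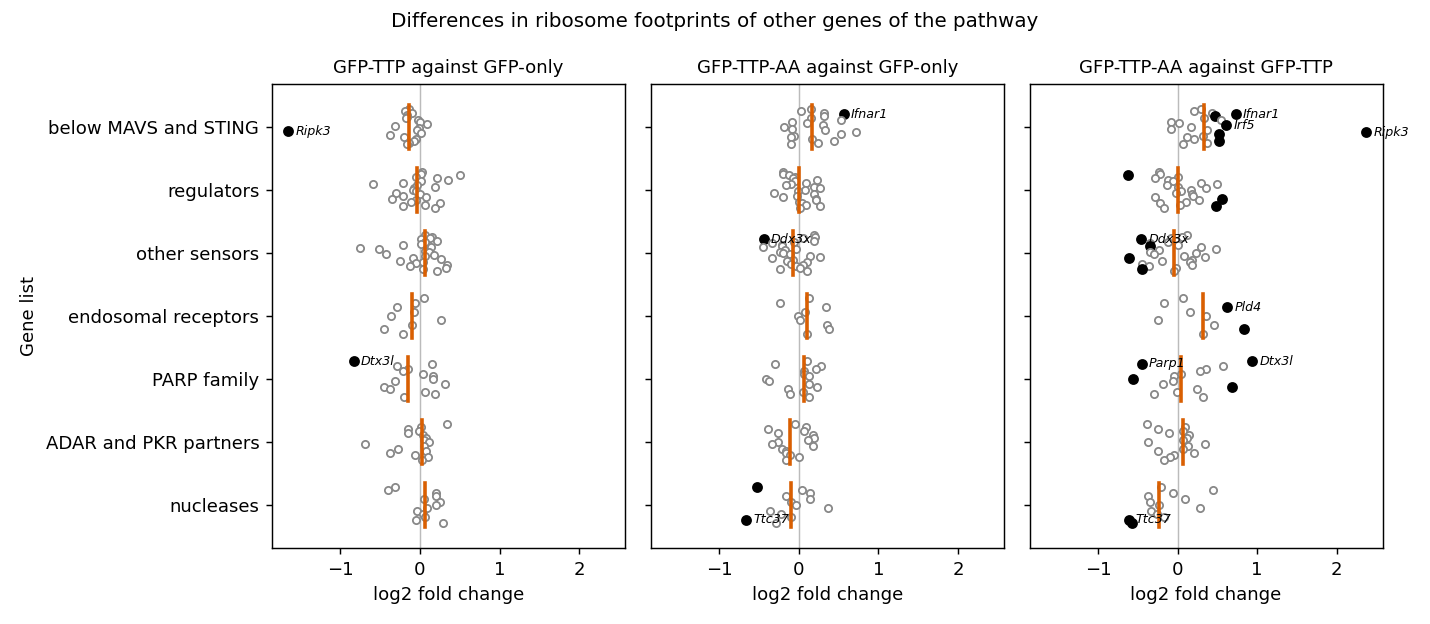
Log2 fold change of each tested gene of the 7 lists in the 3 comparisons, with filled circles for an adjusted p under 0.05, open circles for other genes and orange lines for the list medians. Ripk3 lies apart at -1.66 and 2.37, and the median of the list below MAVS and STING is 0.33 between the TTP forms.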

How the data were processed

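RiboSeq libraries of 3 conditions with 3 replicates each were analysed. Per the labels and methods, the authors isolated footprints with the ARTseq kit, depleted rRNA, trimmed reads with Trim Galore, aligned them with TopHat (TopHat2 2.0.12 in the submitters' processing notes) to mm10/GRCm38 keeping up to 2 alignments per read, counted them with HTSeq and fitted DESeq2 1.6.3 with library date and condition. How reads shared with near-identical copies were counted was not examined.

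The authors' deposited table of normalised values, used as a signal, has 16932 lines (11 repeated) and was tested to hold fitted values: after condition and replicate-number terms the largest residual of its log2 values was 1.60e-14. Per library these values add up to 2570292 at the least and 12804501 at the most, and observed depth is unknown. From the authors' deposited comparison tables the log2 fold change served to recover the library factors (0.413 to 2.13), and the standard error, held as a score, gave the errors. Their statistics and p-values were not used.

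Fold changes were recomputed from the fitted values, divided by the standard error (Wald test, two-sided, normal distribution) and adjusted by the Benjamini-Hochberg method over genes with a normalised mean of at least 10, with a threshold of 0.05. Intervals are 95%. The procedure was checked on simulated data. In GFP-TTP against GFP-only 9938 genes have an error, in the other comparisons 10103. The p-values rest on the errors of the authors' DESeq2 model for these libraries, whose spread may be technical. All 10 genes of the set are named, with at most 8 genes of the 7 lists by lowest adjusted p (at most 3 per list), Zfp36, and genes that follow from a count of 5 or fewer. Neighbours named beyond this were chosen after their values were seen. The members and lists were chosen with earlier results of these data known. Alternatives were another filter, another scaling, pseudocounts and another adjustment. Python 3 with numpy, pandas and scipy was used.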

Additional observations from a re-analysis of the deposited data

How the results depend on the processing

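Each comparison was repeated with no filter, with a fitted mean of at least 50, with median-of-ratios library factors, with fold changes centred on their median or on that of each chromosome, and with all comparisons adjusted together. Counts of genes past the threshold ranged from 165 to 270 in GFP-TTP against GFP-only (208 as reported), from 256 to 381 in GFP-TTP-AA against GFP-only (306) and from 847 to 1069 in GFP-TTP-AA against GFP-TTP (1035). The 9 genes gave 159 fold changes with a test under these settings, of which 155 kept their direction and their side of the threshold. Dhx58 passed in GFP-TTP against GFP-only under 3 of them, and its value near 0 in GFP-TTP-AA against GFP-only turned from -0.040 to 0.037 when the chromosome median was subtracted, at an adjusted p of 0.984 by the Wald test on the DESeq2 errors. With a fitted mean of at least 50 Dhx58 was not tested, and 3 of the 8 tested genes passed between the TTP forms. A pseudocount of 10 moved Ifih1 to -1.01 with GFP-TTP against GFP-only and to 1.95 between the TTP forms. Coding length by the union of coding exons changed the level per kb of Samhd1 only, by less than the spread between libraries.

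No paired analysis was possible because the deposited values are fitted with a replicate term already in the model and hold no deviations from it. For the same reason leaving out each replicate in turn was not run, and no result here is known to hold without a given library. Results for Ifih1, Dhx58 and Ddx58 are the least precise, as their errors are the largest of the set. Their levels are also the lowest of the set, and whether coverage sets these errors was not tested.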
